A study of Mus musculus with 32 samples.

Results

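Gas5, Snhg6, Snhg11 and Norad are long noncoding RNAs, transcripts that are spliced or polyadenylated like messenger RNA but are not known for a protein product. They were chosen by gene symbol, as all probe sets whose single symbol in the platform annotation is one of these 4 names. That gave 8 probe sets for 4 genes, of 8251 genes that had a probe set with a single symbol. The 4 genes were picked with earlier results of these data in view, so their levels are given as a description. Where the text says that the fit over all probe sets called one of them, that is also a description of genes chosen for their values and supports nothing by itself. The samples were hippocampal RNA of untreated mice of 8 inbred strains: C57BL/6J, FVB/NJ, SJL/J, DBA/2J, BALB/cByJ, A/J, C3H/HeJ and strain-129S1/SvImJ. No strain served as a control, and the labels name no allele, agent, age or sex. Each strain was 1 pool of RNA from 6 mice, turned into 1 cDNA, 2 cRNA preparations and 4 arrays. By the series design, arrays 1 and 2 carried preparation 1 and arrays 3 and 4 carried preparation 2. The arrays of a strain therefore repeat 1 pool, and the spread given below is technical and not that between animals.

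Small nucleolar RNAs (snoRNAs) guide the chemical modification of ribosomal and other RNAs, and in mammals most of them are cut out of the introns of host genes. The spliced RNA left by a noncoding host such as Gas5 is short-lived, because its short reading frames expose it to nonsense-mediated decay when it is translated. Gas5, growth arrest-specific 5, accumulates when growth stops and has been described as a decoy for the glucocorticoid receptor, and it belongs to the transcripts whose first bases form a pyrimidine tract that ties them to growth signalling. Snhg6 and Snhg11 are further snoRNA host genes, and Snhg11 is known in mouse brain as a transcript of neurons. Norad, an abundant cytoplasmic RNA induced by DNA damage, binds Pumilio proteins and keeps them from their messenger RNA targets. In the mouse assembly GRCm38.p6, RefSeq annotation places 8 snoRNA genes inside Gas5, 1 inside Snhg6 (Snord87) and 2 inside Snhg11. It places 0 inside Norad, so Norad is a long noncoding RNA but not a host RNA by that table.

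The promoter sequences that RefSeq gives for these genes (GRCm38.p6, an assembly of the strain C57BL/6J) are shown because Gas5 had the widest difference between strains of the 4 genes and has 2 listed starts. Each runs from 250 bases before to 50 bases after the start, on the plus strand, and capitals mark motifs that were searched for. The window of the upstream Gas5 start is chr1:161034351-161034650, that of the downstream one chr1:161034916-161035215, and that of the Snhg11 start chr2:158375463-158375762.
Gas5, upstream start: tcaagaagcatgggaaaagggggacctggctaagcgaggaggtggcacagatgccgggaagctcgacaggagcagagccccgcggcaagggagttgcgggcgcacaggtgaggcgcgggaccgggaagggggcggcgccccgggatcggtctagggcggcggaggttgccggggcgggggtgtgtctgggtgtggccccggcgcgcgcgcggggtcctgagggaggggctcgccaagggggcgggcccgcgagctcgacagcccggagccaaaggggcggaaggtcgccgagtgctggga
Gas5, downstream start: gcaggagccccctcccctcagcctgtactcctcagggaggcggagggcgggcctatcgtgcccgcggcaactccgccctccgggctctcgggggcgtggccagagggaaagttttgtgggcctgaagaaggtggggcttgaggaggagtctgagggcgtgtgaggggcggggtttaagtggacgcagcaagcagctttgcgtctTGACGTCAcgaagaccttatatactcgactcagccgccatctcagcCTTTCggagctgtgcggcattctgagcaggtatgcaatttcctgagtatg
Snhg11: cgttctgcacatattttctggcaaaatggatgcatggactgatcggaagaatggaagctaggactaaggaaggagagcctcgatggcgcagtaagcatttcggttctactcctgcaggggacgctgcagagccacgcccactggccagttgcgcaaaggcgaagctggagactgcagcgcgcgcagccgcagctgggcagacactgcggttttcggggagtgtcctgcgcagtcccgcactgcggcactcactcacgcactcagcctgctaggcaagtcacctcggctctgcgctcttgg

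In the downstream Gas5 sequence the capitals mark TGACGTCA, the cyclic AMP response element, at position -46 with the start base as 0, and the tract CTTTC that begins at the start base. TGACGTCA was found in 1.79% of 32851 RefSeq promoters of the same length, and a C at the start followed by 4 or more pyrimidines in 2.51%. TATAAA (13.6% of all promoters) and CACGTG (7.15%) were searched on both strands too and were not in any of the 3 windows. The 3 windows held 33, 19 and 21 CG dinucleotides in the order printed, against a median of 7. The motifs were chosen with the sequences in view, they describe the letters of the reference strain, and the sequences of the other 7 strains were not analysed here. Snhg6 and Norad are named only.

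Values are the deposited signals of an Affymetrix U74Av2 array and their log2, each strain mean and SD being over its 2 preparations (n = 2). Probe sequences were not at hand, so whether the probes match each strain equally was not tested. A difference in signal between strains is therefore not by itself a difference in RNA level. Array medians ran from 29.4 to 43.7. Of 12422 probe sets that are not controls, the 7453 with the highest mean were tested, and 5 of the 8 probe sets of these genes were among them. The other 3 were below the limit on mean signal and are given as levels only. Gas5 98530_at stood at percentile 31.7 of the mean over probe sets, Snhg6 161635_f_at at 9.57 and Gas5 101885_at at 7.67. Across the 8 strains limma's moderated F-test called 4.58% of tested probe sets (341), and 18.9% (1405) with the preparation number as a block. Of the 5 tested probe sets of these genes it called 4, a count that the choice of the genes fixes in part. All 13 neuronal marker genes on the array were above the limit. Snap25, a fusion protein of synaptic vesicles, read 3234 to 6180 on the 32 arrays, but it is present in neurons of every brain region and does not single out the hippocampus. Prox1, a transcription factor of dentate granule cells, had strain means of 4.59 to 5.67 (log2), and Wfs1, a membrane protein abundant in hippocampal field CA1 of the mouse, 7.67 to 8.57. Of 7 genes on the array that mark cerebellum, striatum or thalamus, 4 were above the limit too, among them Pcp2, a cerebellar transcript, at 23.9 to 316 and Tcf7l2, a thalamic transcription factor, at 53.5 to 215. These levels do not settle how much tissue of other regions the pools held.

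Gas5 divided the strains into a high set of 5 and a low set of 3 with no array in between. On probe set 98531_g_at the 4 arrays of C57BL/6J read 792, 791, 754 and 741, in array order. Those of FVB/NJ read 659, 790, 733 and 774, and those of SJL/J read 636, 696, 617 and 570. These 3 strains formed the top of the order, and their neighbours overlapped, C57BL/6J with FVB/NJ and FVB/NJ with SJL/J. DBA/2J followed with 379, 429, 427 and 498 and BALB/cByJ with 355, 338, 444 and 344. These 2 overlapped each other and lay below every array of the top 3. A/J read 83.3, 80.8, 99.8 and 88.1, C3H/HeJ 86.5, 73.0, 64 and 71.0, and strain-129S1/SvImJ 61.8, 44.9, 66.5 and 63.9. Neighbours overlapped within this low set as well, but no array of it reached 100.

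In strain means, Gas5 read 9.59 ± 0.06 in C57BL/6J, 9.53 ± 0.04 in FVB/NJ, 9.29 ± 0.12 in SJL/J, 8.75 ± 0.14 in DBA/2J, 8.52 ± 0.12 in BALB/cByJ, 6.45 ± 0.14 in A/J, 6.19 ± 0.17 in C3H/HeJ and 5.87 ± 0.22 in strain-129S1/SvImJ (log2). The step between BALB/cByJ and A/J was 2.07 on the log2 scale, or 4.20-fold. The lowest array of the high set lay 3.39-fold above the highest array of the low set. All 4 arrays of 1 strain lay apart from all 4 of the other in 23 of 28 pairs of strains, where 9.82% of pairs did so over all tested probe sets. The span, the highest minus the lowest strain mean, was 3.71 (13.1-fold), and only 5 tested probe sets had a wider one, against a median span of 0.68. The division was present in both preparations, whose strain means correlated at r = 0.993 over 8 strains. Within each of the 4 days in the titles that hold 7 or 8 strains the span was between 3.53 and 4.14. Strain took 98.9% of the variance of this probe set, preparation 0.32% and array 0.81%, where the medians over tested probe sets were 6.73%, 20.9% and 58.3%.

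**Figure D1:**
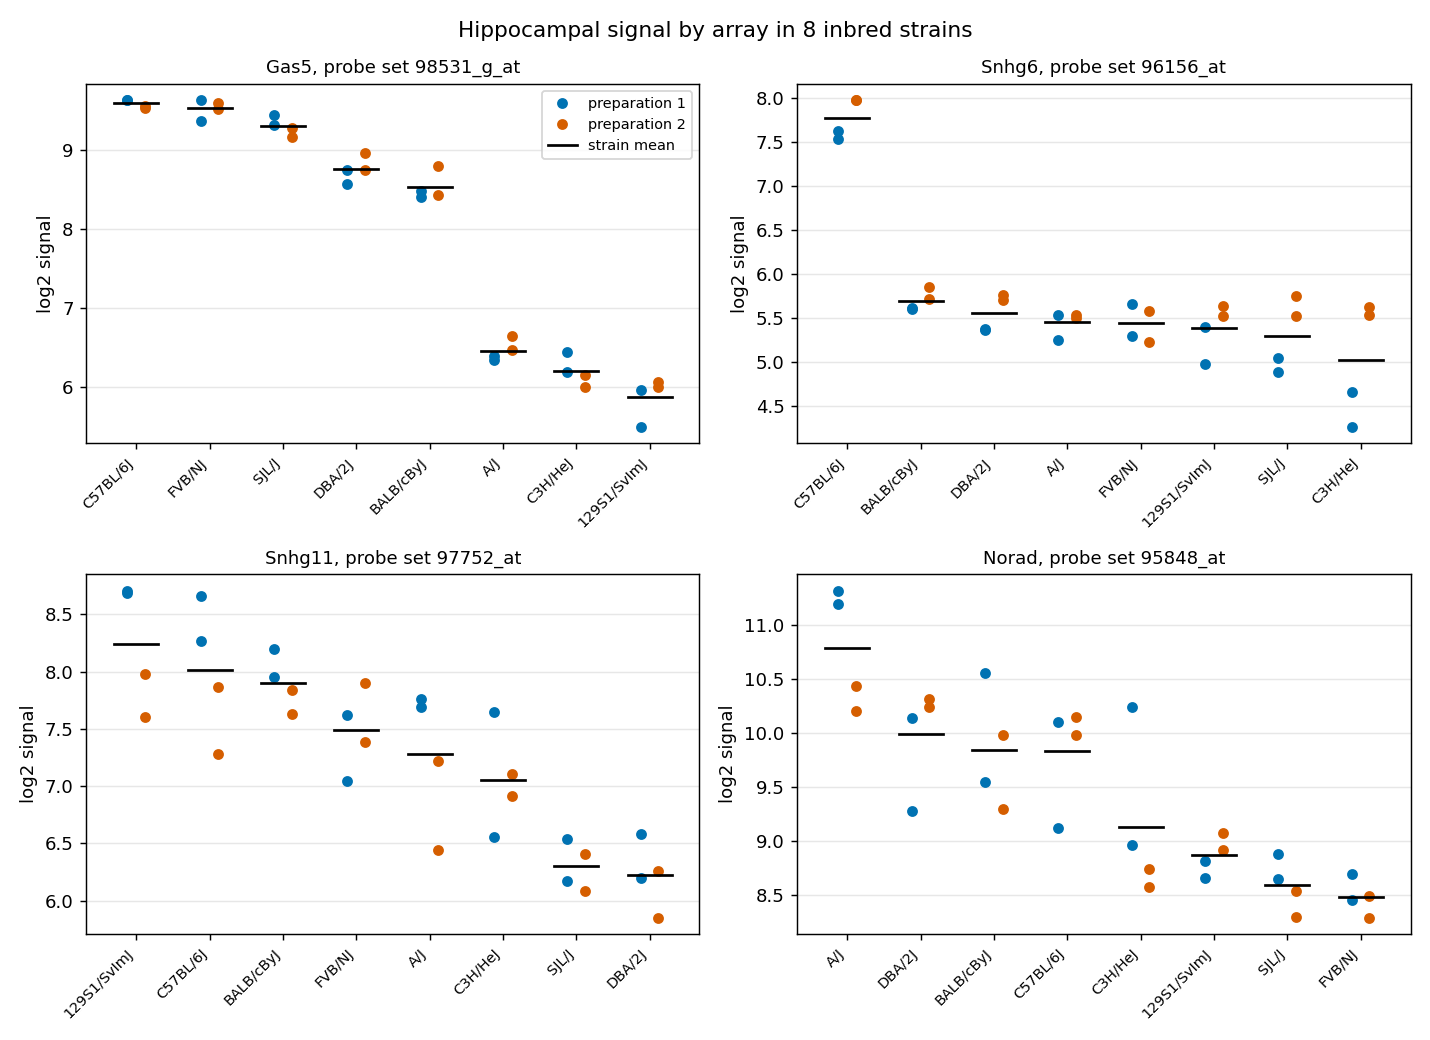
Log2 signal (vertical axis) of 1 probe set each of Gas5, Snhg6, Snhg11 and Norad on 32 arrays, with strains ordered from the highest to the lowest mean in each panel, points coloured by cRNA preparation (1 or 2) and a bar at the strain mean. Gas5 falls into 5 high and 3 low strains, Snhg6 is high in C57BL/6J alone, and Snhg11 and Norad grade from strain to strain with wide spread between preparations.

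A second, dim Gas5 probe set had the same 3 strains lowest in mean, at a signal too low for a usable order. Probe set 98530_at is annotated to the same clone sequence (AI849615) as 98531_g_at, so the pair is not an independent reading of the gene, and the suffix of 98531_g_at marks probes that can read more than 1 transcript. On 98530_at the strain means were 4.64 ± 0.05 in FVB/NJ, 4.36 ± 0.65 in C57BL/6J, 4.33 ± 0.25 in SJL/J, 4.28 ± 0.72 in DBA/2J and 3.98 ± 0.43 in BALB/cByJ. They were 3.09 ± 1.04 in strain-129S1/SvImJ, 2.94 ± 1.27 in A/J and 2.64 ± 0.35 in C3H/HeJ. The same 5 strains had the higher means, and the correlation with 98531_g_at over 8 strains was 0.967. Every pair of neighbours in that order overlapped, 21 of 32 arrays read 20 or less, and r was 0.934 within preparation 1 and 0.771 within preparation 2. The third Gas5 probe set, 101885_at, is annotated to another sequence (X59728). It read 0.4 to 20.5, with 31 of 32 arrays at 20 or less, and correlated with 98531_g_at at r = -0.04. Such levels gave no order of strains.

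The Gas5 division was not the widest division of any other tested probe set. With only the widest gap free of overlap taken for each probe set, 0 others had the same 3 strains low, and 0 had them high. A narrower gap at that place was not counted. A division of the strains into any 2 such sets was present for 4.62% of tested probe sets, and one with a gap of at least 1 on the log2 scale for 0.228% (17 probe sets, Gas5 and Snhg6 among them). The genes most like Gas5 in strain means were Atp1b3, a subunit of the sodium pump (r = 0.937), Son, a splicing cofactor (r = 0.936), and Sox18, a transcription factor of vessels (r = 0.932), over 8 strains. Their spans were 0.28, 0.70 and 0.64, and none of these 3 passed the F-test (adjusted p = 0.72, 0.77 and 0.82, limma). The most opposite was Emcn, a vessel surface protein (r = -0.903, span 0.56). Of the 6 genes with a probe set that lie nearest to Gas5 in the RefSeq gene table, 3 on either side, only Rabgap1l reached the signal limit. Rabgap1l, a regulator of Rab GTPases, spanned 1.06 with an adjusted p of 0.14 and correlated with Gas5 at r = 0.084. Zbtb37, the gene directly next to Gas5, read a mean of 4.37 (log2) and was below the limit.

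Snhg6 signal was high in C57BL/6J alone. On probe set 96156_at C57BL/6J read 185, 198, 251 and 252, and the 28 arrays of the other 7 strains read 19.2 to 57.9. The lowest C57BL/6J value was 3.19 times the highest of those 28. The strain means were 7.78 ± 0.28 in C57BL/6J, 5.69 ± 0.13 in BALB/cByJ, 5.55 ± 0.26 in DBA/2J, 5.46 ± 0.09 in A/J, 5.44 ± 0.05 in FVB/NJ, 5.38 ± 0.28 in strain-129S1/SvImJ, 5.30 ± 0.47 in SJL/J and 5.02 ± 0.79 in C3H/HeJ. The step from C57BL/6J to BALB/cByJ was 2.08 (4.23-fold), and every later pair of neighbours overlapped. Among the other 7 strains, the low end in C3H/HeJ came from preparation 1, with 19.2 and 25.2, against 49.3 and 46.4 in preparation 2. The span was 2.76 (6.76-fold), and 3.32 without C3H/HeJ preparation 2. The F-test call of this probe set was lost when C57BL/6J preparation 2 was left out, with 1 preparation then standing for that strain. Strain took 81.8% of the variance and preparation 15.2%. Preparation 1 read lower than preparation 2 in 7 of 8 strains, with a median difference of -0.38. Within strains the log2 signal followed the median signal of the array (r = 0.794 over 32 arrays). C57BL/6J, the high strain, had the lowest mean of array medians, 34.7. Over 8 strain means r was 0.730 with the log2 ratio of 3′ to 5′ actin control probe sets and 0.321 with that of Gapdh. C57BL/6J had the highest actin ratio (0.42), and within strains the actin r was -0.16. With the mean of sense-strand controls, which read the wrong strand of actin and Gapdh, r was -0.509 within strains and -0.269 over strain means. The part of these control measures was not tested. The part of array scaling in the result was not tested beyond the settings in the closing section.

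The second Snhg6 probe set, 161635_f_at, read 0.3 to 16.9 and gave no order of strains. All of its arrays were at 20 or less, its f suffix marks probes shared by a family of sequences, and its correlation with 96156_at was -0.033.

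C57BL/6J was set apart in the same way for other genes. Of the tested probe sets, 34 others had as their widest division every C57BL/6J array above all 28 others, and 24 had every C57BL/6J array below them. The gap was at least 1 on the log2 scale for 2 of the 34 and 4 of the 24, which were named after their values were seen: the probe set annotated to Mir686 and Prdx2, a peroxiredoxin, on the high side, and Cap1, an actin regulator, and 3 probe sets of Gnb1 on the low side. The genes most like Snhg6 in strain means were Mir686 (r = 0.987), Hagh, an enzyme of methylglyoxal clearance (r = 0.980), and Map1lc3b, a protein of autophagosomes (r = 0.964). Mir686 averaged 9.84 ± 0.07 in C57BL/6J, while means elsewhere ran from 7.01 to 7.39. Its correlation with Snhg6 was 0.965 within preparation 1 and 0.987 within preparation 2. Hagh spanned 0.68 and did not pass the F-test (adjusted p = 0.20, limma), nor did Map1lc3b (span 0.34, adjusted p = 0.85). The most opposite was Gnb1, a beta subunit of G proteins, on 94854_g_at (r = -0.977), at 8.54 ± 0.36 in C57BL/6J and 10.13 to 10.36 elsewhere. All of these correlations rest on the 1 strain that lies apart.

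Of the 6 genes with a probe set nearest to Snhg6, 3 were above the signal limit (Cops5, Rrs1 and Arfgef1), and these 3 did not pass the F-test. Mybl1, Oprk1 and Slco5a1 were below the limit and were not tested. Cops5, a subunit of the COP9 signalosome and the nearest gene after Snhg6 with a probe set, was also highest in C57BL/6J at 7.50, with a span of 0.77 (adjusted p = 0.38, limma). Rrs1, a ribosome assembly factor (span 0.48), and Arfgef1, an exchange factor for ARF GTPases (span 0.88), had other orders.

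Of the marker lists of cells or regions, 4 had C57BL/6J at an end of their summed signal and are given for that reason. In the others C57BL/6J ranked 7 from the highest in the neuronal and in the astrocyte sum, and 4 for the 1 tested erythroid gene. The share of all tested genes that passed the F-test was 4.1%. The summed signal of 6 microglial genes was 1231 to 1281 on the 4 C57BL/6J arrays, against strain means of 882 to 1017 elsewhere. Of those 6 genes 0 passed limma's F-test, 3 had an unadjusted p under 0.05, and 3 passed with the block (C1qa, C1qb and C1qc). Their orders differed, with C1qc, C1qb and Tyrobp highest in C57BL/6J but Cx3cr1 lowest there. The summed signal of 6 oligodendrocyte genes averaged 4210 in C57BL/6J, against 3071 to 3630 elsewhere. Of these 1 passed, Mag, a myelin protein (8.31 in C57BL/6J, the highest strain, adjusted p = 0.018, limma), while Mal was highest in strain-129S1/SvImJ and Cldn11 in FVB/NJ. The sum of 3 choroid plexus genes was lowest in C57BL/6J at 116, against 153 to 411 elsewhere. Of these 1 passed, transthyretin (Ttr, 6.11 in C57BL/6J, the lowest strain, adjusted p = 4.8e-05), while Folr1 was lowest in strain-129S1/SvImJ and Kl in BALB/cByJ. The sum of 4 genes of cerebellum, striatum or thalamus was also lowest in C57BL/6J, at 260 against 278 to 465 elsewhere. Of these 0 passed, and only Tcf7l2 was lowest in C57BL/6J. With the block, 1 oligodendrocyte gene, 1 choroid plexus gene and 1 gene of the other regions passed. The part of these lists in the Snhg6 values was not tested, and fewer cells of a type and less RNA per cell cannot be told apart in bulk tissue.

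Snhg11 graded across the strains, with SJL/J and DBA/2J at the low end. On probe set 97752_at strain-129S1/SvImJ read 417, 411, 252 and 195, C57BL/6J 405, 307, 233 and 155, and BALB/cByJ 293, 248, 198 and 229. FVB/NJ read 196, 132, 167 and 239, A/J 216, 206, 149 and 87.1, and C3H/HeJ 200, 94.1, 138 and 121. From strain-129S1/SvImJ down to C3H/HeJ each strain overlapped the next. SJL/J read 93.1, 72.2, 84.7 and 67.9 and DBA/2J 96.0, 73.4, 76.8 and 57.8. SJL/J lay below every C3H/HeJ array, though by little (94.1 in C3H/HeJ against 93.1 in SJL/J), while DBA/2J overlapped C3H/HeJ and A/J.

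The strain means of Snhg11 were 8.24 ± 0.64 in strain-129S1/SvImJ, 8.02 ± 0.63 in C57BL/6J, 7.90 ± 0.24 in BALB/cByJ, 7.49 ± 0.22 in FVB/NJ, 7.28 ± 0.63 in A/J, 7.06 ± 0.06 in C3H/HeJ, 6.30 ± 0.08 in SJL/J and 6.22 ± 0.24 in DBA/2J. The span was 2.02 (4.05-fold), wider than that of all but 1.62% of tested probe sets. Of 28 pairs of strains, 9 did not overlap, where 9.82% of pairs did not over all tested probe sets. No division into 2 sets was free of overlap. Preparation 1 read higher than preparation 2 in 7 of 8 strains, by 0.90 in strain-129S1/SvImJ, 0.89 in C57BL/6J and 0.89 in A/J. FVB/NJ was the exception at -0.31. The title of FVB/NJ array 2, which counts as preparation 1, carries the day that array 3 carries in 6 other strains. The sense-strand control read 7.39 on FVB/NJ array 1 and 5.33, 5.09 and 5.62 on arrays 2, 3 and 4. FVB/NJ values by preparation rest on the assignment in the series design, which was not tested. Strain took 68.0% of the variance, preparation 15.8% and array 16.2%, and the strain means of the preparations correlated at r = 0.864. Within each of the 4 days in the titles strain-129S1/SvImJ was highest and DBA/2J or SJL/J lowest.

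The genes most like Snhg11 were H2bc1, a histone (r = 0.941), Slc37a4, the glucose-6-phosphate transporter (r = 0.939), and Fto, an RNA demethylase (r = 0.929), and the most opposite was Pycrl of proline synthesis (r = -0.941). None of these 4 passed the F-test (limma, adjusted p of 0.23 to 0.71). The gene nearest to Snhg11 that passed was Slc32a1, the vesicular GABA transporter and the second gene after it with a probe set. Slc32a1 averaged 6.89 ± 0.30 in DBA/2J, while means elsewhere ran from 8.68 to 9.12 (adjusted p = 0.0003, limma). It was low in DBA/2J like Snhg11 but high in SJL/J (9.09 ± 0.03), where Snhg11 was low, and the correlation over strains was 0.553. Lbp and Rprd1b, on the other side, did not pass (spans 0.92 and 0.59). As Snhg11 is a neuronal RNA, the summed signal of 13 neuronal genes is given beside it. The sum was lowest in DBA/2J (mean 9480) and averaged 10611 in SJL/J and 9940 in C57BL/6J, against 11951 in A/J at the top. C57BL/6J was next to lowest in the neuronal sum and next to highest in Snhg11. Single neuronal genes differed there, Nefl being highest in C57BL/6J (8.31) and Neurod1 lowest (4.90). The part of neuronal content in the Snhg11 values, that of DBA/2J included, was not tested.

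Norad gave 2 tested probe sets with different strain patterns. On 95848_at A/J was highest, with 2554, 2341, 1382 and 1179. DBA/2J read 1126, 619, 1205 and 1273, BALB/cByJ 1508, 744, 628 and 1007, and C57BL/6J 1094, 554, 1133 and 1008. A/J overlapped the next strain, because 1179, on its array 4, lay below the highest DBA/2J arrays. C3H/HeJ read 1206, 498, 427 and 380, and its first array stood apart from its other 3. strain-129S1/SvImJ read 448, 403, 538 and 482, SJL/J 470, 400, 370 and 312, and FVB/NJ 413, 350, 312 and 358. These 3 strains formed the low end, and each pair of neighbours in the whole order overlapped.

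The strain means on 95848_at were 10.79 ± 0.66 in A/J, 9.99 ± 0.40 in DBA/2J, 9.84 ± 0.29 in BALB/cByJ, 9.83 ± 0.32 in C57BL/6J, 9.13 ± 0.67 in C3H/HeJ, 8.86 ± 0.18 in strain-129S1/SvImJ, 8.58 ± 0.25 in SJL/J and 8.48 ± 0.13 in FVB/NJ. The span was 2.31 (4.96-fold), 2.78 without A/J preparation 2 and 1.84 without A/J preparation 1. A/J remained the highest strain in all 58 other settings. Of 28 pairs of strains 13 did not overlap, where 9.82% of pairs did not over all tested probe sets. Preparation 1 read higher than preparation 2 by 0.94 in A/J and 0.94 in C3H/HeJ, and lower by 0.57 in DBA/2J and 0.46 in C57BL/6J (differences -0.57 and -0.46). The mean of the sense-strand control probe sets, which read the wrong strand of actin and Gapdh, was 7.46 in preparation 1 of A/J and 5.36 in its preparation 2. In C3H/HeJ it was 7.01 and 5.42, in the same order. In SJL/J it was 7.11 and 5.38, with a Norad difference of 0.35 between preparations. In BALB/cByJ it was nearly level, 7.74 and 7.70, with a Norad difference of 0.41. Over 32 arrays the Norad signal followed that control within strains at r = 0.558, and over 8 strain means at r = 0.222. Its part in the A/J value was not tested.

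**Figure D2:**
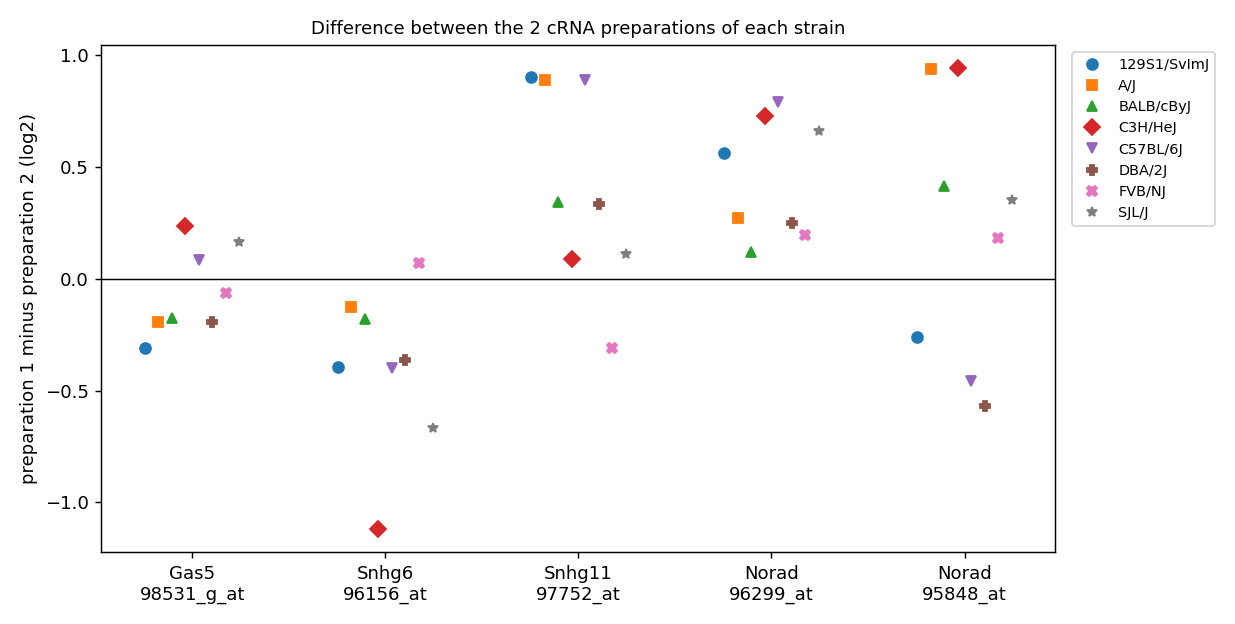
Difference between preparation 1 and preparation 2 of each strain (vertical axis, log2) for the 5 tested probe sets of Gas5, Snhg6, Snhg11 and Norad, with 1 symbol for each strain. Gas5 differences stay between -0.31 and 0.24, Norad 96299_at lies above 0 in 8 of 8 strains, and Norad 95848_at goes both ways, from -0.57 in DBA/2J to 0.94 in C3H/HeJ.

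The other Norad probe set, 96299_at, shifted between preparations in the same direction in every strain. Its arrays lay between 1510 and 3904. BALB/cByJ read 3147, 3904, 3435 and 3025 and lay above every array of A/J (2999, 2914, 2468 and 2423), the next strain. The strain means were 11.71 ± 0.09 in BALB/cByJ, 11.39 ± 0.19 in A/J, 11.29 ± 0.47 in SJL/J, 11.26 ± 0.18 in DBA/2J, 11.23 ± 0.56 in C57BL/6J, 11.16 ± 0.51 in C3H/HeJ, 11.02 ± 0.14 in FVB/NJ and 10.96 ± 0.40 in strain-129S1/SvImJ. All neighbours after BALB/cByJ overlapped. Of 28 pairs of strains 3 did not overlap, a share near the 9.82% of pairs over all tested probe sets. The span was 0.75, near the median of 0.68 over all tested probe sets. Preparation 1 read higher in 8 of 8 strains, by 0.12 in BALB/cByJ to 0.79 in C57BL/6J. With preparation nested in strain, preparation took 79.5% of the variance, and the share of strain, not allowed below 0, was 0%. That split counts a shift common to all strains as spread between preparations. Within each of 4 days in the titles, strain-129S1/SvImJ was lowest and A/J or BALB/cByJ highest. When preparation entered the fit as a block, the F-test called 5 of the 5 tested probe sets of these genes. The addition was 96299_at, at the edge of the threshold (adjusted p = 0.05, limma). The sense-strand control averaged 7.72 in BALB/cByJ, above the other 7 strains (5.17 to 6.41), and over the strain means its correlation with this probe set was 0.844. Its part in the BALB/cByJ value was not tested. Neither was that of the title days of BALB/cByJ preparation 2, which differ from those of most strains.

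The 2 Norad probe sets correlated at r = 0.574 over strains (0.497 within preparation 1 and 0.444 within preparation 2). They are annotated to different sequences, C76063 for 95848_at and AI847298 for 96299_at. A/J and BALB/cByJ were among the top 3 strains on both, and FVB/NJ and strain-129S1/SvImJ among the lowest 3 on both. The genes most like 95848_at were Lsm4, an RNA-binding protein of splicing (r = 0.90), Dhx9, an RNA helicase (r = 0.889), and Dnaja2, a co-chaperone (r = 0.873), and the most opposite was Slc35e1 (r = -0.929). The genes most like 96299_at were Nek6, a mitotic kinase (r = 0.958), Xirp1, an actin-binding protein of muscle (r = 0.952), and Ficd, an enzyme that modifies a chaperone of the endoplasmic reticulum (r = 0.950). The most opposite was Adcyap1, the neuropeptide PACAP (r = -0.984). None of these 8 genes passed the F-test (limma). Of the neighbours of Norad, Dlgap4, a scaffold protein of synapses, passed (adjusted p = 9.1e-05, limma), with 7.20 ± 0.18 in C57BL/6J and 6.84 ± 0.15 in DBA/2J against 8.03 to 8.36 in the other strains. Its correlation with Norad 96299_at was 0.042. Rbm39, Romo1 and Myl9 did not pass.

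**Figure D3:**
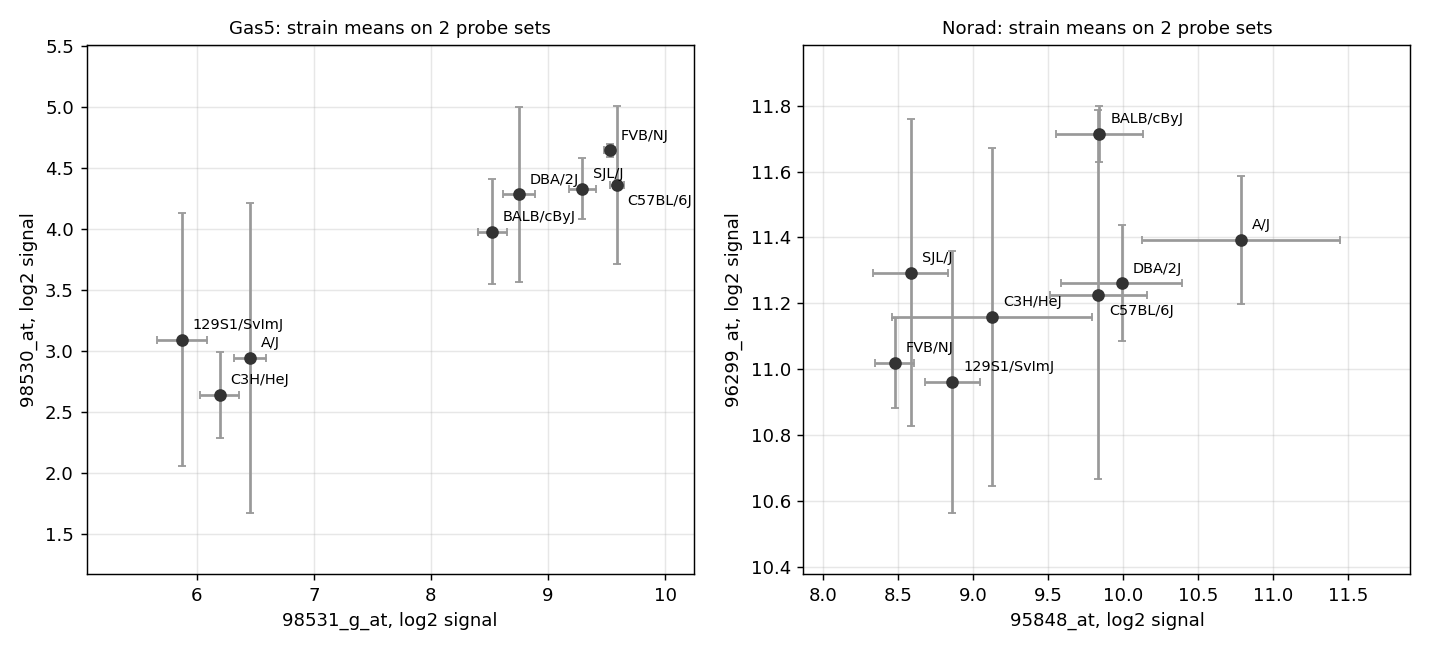
Strain means (points, log2 signal) with SD over 2 preparations (bars) on 2 probe sets of Gas5, left, and of Norad, right, each strain named beside its point. The 2 Gas5 probe sets put the same 3 strains low (r = 0.967), while the Norad pair correlates less (r = 0.574) and the bars on 96299_at overlap for most strains.

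The 4 genes did not share a strain order. Over strain means the bright Gas5 probe set correlated with Snhg6 96156_at at r = 0.477, with Snhg11 at -0.226, and with Norad at -0.181 (95848_at) and 0.182 (96299_at). Snhg6 and Snhg11 had r = 0.409, and Snhg11 had 0.026 and -0.071 with the same 2 Norad probe sets. With 8 strains such values are a description. C57BL/6J was high for Gas5 and Snhg6 and second for Snhg11. DBA/2J had the lowest Snhg11 and the second highest Norad on 95848_at, and strain-129S1/SvImJ had the lowest Gas5 and the highest Snhg11. FVB/NJ and SJL/J lay next to each other for Gas5 at the high end and for Norad 95848_at at the low end.

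**Figure D4:**
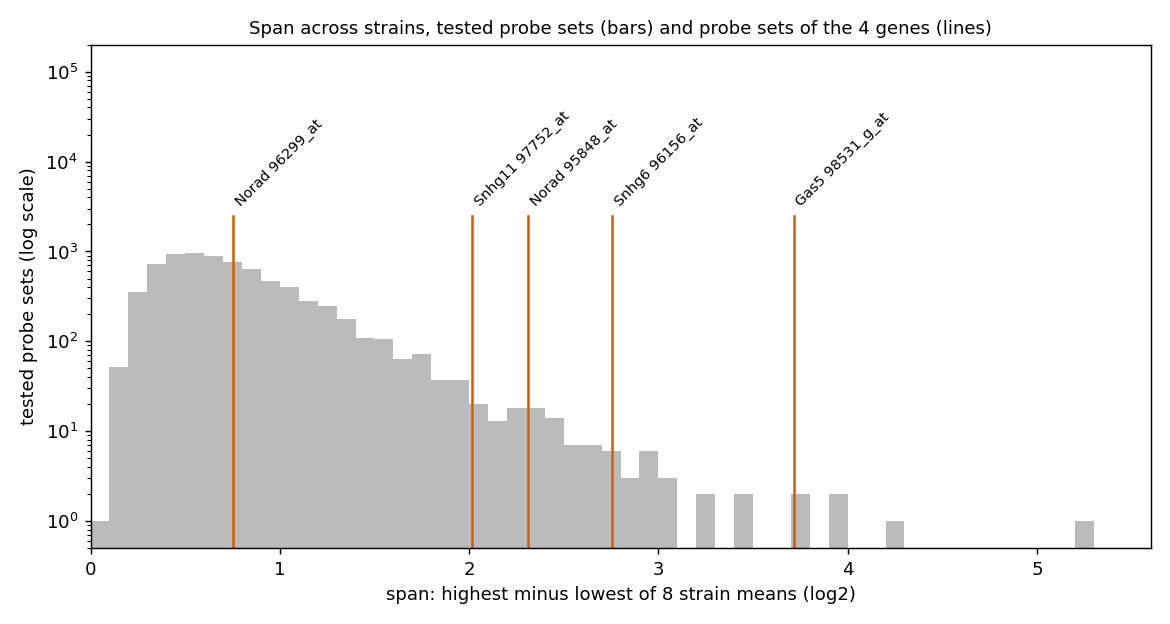
Number of tested probe sets (vertical axis, log scale) by span across strains, the highest minus the lowest of 8 strain means (horizontal axis, log2), with a line at each tested probe set of the 4 genes. Norad 96299_at, at 0.75, lies in the bulk, and the other 4 lie between 2.02 and 3.71.

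Other noncoding RNAs and the proteins around snoRNAs mostly did not pass. With 1 probe set a gene, 4.1% of all 5660 tested genes passed the F-test, with a median span of 0.66. Of 4 other tested long noncoding RNAs 1 passed, with a median span of 1.07. It was Meg3, an imprinted RNA, at 10.89 ± 0.03 in BALB/cByJ and 9.62 ± 0.10 in DBA/2J as its extremes (adjusted p = 0.0029, limma, 1.3e-06 to 0.065 over 58 other settings). Epb41l4aos, Snhg1 and Tug1 spanned 1.19, 0.96 and 0.58 and did not pass. Of 21 tested protein-coding genes that carry snoRNAs in their introns 1 passed, or 4.76%, with a median span of 0.55. An unadjusted p under 0.05 (limma's F-test) was found for 6 of the 21. The gene that passed was Rpl13a, a ribosomal protein, at 7.70 ± 0.07 in DBA/2J and 6.46 ± 0.20 in SJL/J (adjusted p = 0.030, 1.95e-07 to 0.16 over the other settings).

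Of 11 tested proteins of snoRNA particles and their assembly 1 passed, with a median span of 0.61. Nop10, a core protein of the particles that guide pseudouridylation, was at 9.27 ± 0.06 in SJL/J and 8.60 ± 0.07 in BALB/cByJ (adjusted p = 0.041, limma), and it passed in 26 of 58 other settings (2.9e-05 to 0.16). Fibrillarin (Fbl), the methyltransferase of the other class of particles, spanned 0.32. Of 8 tested decay factors 1 passed, with a median span of 0.47. Xrn1, the exoribonuclease that degrades RNA from its 5′ end, read 1.60 ± 1.34 in DBA/2J and 3.98 to 5.52 elsewhere (adjusted p = 0.017, 1.4e-06 to 0.17 over the other settings). Its probe set was dim, with a mean of 4.46 (log2), just above the limit for testing. The DBA/2J mean lay at the level of the dimmest Gas5 probe set, which gave no order of strains. DBA/2J, with the low Xrn1 value, ranked 4 of 8 from the top in Gas5, 3 in Snhg6 and 8 in Snhg11. Of 6 tested proteins reported to bind Gas5 or Norad, 0 passed limma's F-test, 0 had an unadjusted p under 0.05, and 0 passed with the block. Pum2, a Pumilio protein bound by Norad, spanned 0.23. With the block, where 18.9% of all tested probe sets passed, 2 of 4 noncoding RNAs, 2 of 21 coding hosts, 2 of 11 particle proteins and 2 of 8 decay factors did. Over the neighbours of the 4 genes, 2 of 13 tested probe sets passed, those of Slc32a1 and Dlgap4 (15.4%, median span 0.88), against 4.58% of all tested probe sets (median span 0.68).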

How the data were processed

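Hippocampal RNA of 8 mouse strains was measured on 32 Affymetrix U74Av2 arrays, 4 a strain, grouped by the strain in the sample titles. The authors deposited linear intensities, which MAS5 computed for every probe set, per the submitters' processing notes. Sources used here do not give its version or scaling target. The mean signal with 2% trimmed from each end was 100.05 to 100.07 on every array, so the arrays were taken as scaled. After removal of 66 control probe sets and a floor of 1, signals were put on the log2 scale. Tests covered the upper 60% by mean (limit 21.3). The 2 arrays of a preparation were averaged and 8 strain means were fitted to 16 values with limma 3.58.1 in R 4.3.3 (trend, 8 residual degrees of freedom), with Benjamini-Hochberg adjustment over all tested probe sets and a threshold of 0.05. The fit was tested on simulated data. The number of arrays limits the precision, and p-values cover technical spread only.

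The preparation numbers pair the samples, since by the design text a number marks a round of cRNA synthesis. Differences between preparations correlated in all 28 pairs of strains (r 0.109 to 0.557, median 0.385). The pairs with BALB/cByJ were the weakest, with r of 0.109 to 0.244, where every other pair had at least 0.301. By the titles, arrays 3 and 4 of BALB/cByJ fell on days 5 and 6, whereas those of 6 other strains fell on days 3 and 4. Genes were named from the platform annotation and ordered by the RefSeq table of GRCm38.p6, and sequences are RefSeq's. Named were all probe sets of the 4 genes, the 3 most alike and the 1 most opposite gene for each tested probe set, the 3 nearest genes with a probe set on either side, and up to 6 genes of each list past the F-test. The members, lists and tests were chosen with earlier results of these data known. Alternatives covered normalization, filter, offset (16 or 64), the block, arrays as units, title day, variance trend, and each array or preparation left out.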

Additional observations from a re-analysis of the deposited data

Results flagged for a closer look

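In 64 groups of 4 arrays (8 probe sets in 8 strains), 6 held an array far from the other 3 by Dixon's criterion, and chance alone gives about 1 in 20. Norad 95848_at read 554 on array 2 of C57BL/6J, where the others read 1008 to 1133, and 619 on array 2 of DBA/2J, where the others read 1126 to 1273. Snhg6 96156_at read 38.0 on array 1 of A/J against 45.2 to 46.5. The other 3 were dim values: Gas5 98530_at at 1.5 on array 1 of strain-129S1/SvImJ (others 11.9 to 17.5), Gas5 101885_at at 3.1 on array 3 of C57BL/6J (others 0.7 to 1.2), and Snhg6 161635_f_at at 3.1 on array 3 of C3H/HeJ (others 5.4 to 5.6). Without any 1 array the span of Norad 95848_at stayed between 2.25 and 2.37.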

How the results depend on the processing

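The F-test called 341 probe sets, 1405 with the preparation number as a replicate block, 1388 with single arrays as units and 2324 with single arrays and the title day; the other 7 settings outside the left-out samples gave counts within 1.5 times. Of the 5 tested probe sets of the 4 genes, 3 to 5 were called: Snhg6 96156_at was not called without C57BL/6J preparation 2 and is below the limit of the top 40%, and Norad 96299_at was called with the block or the title day. Adding an offset before log2 lowers spans by construction: with 16 and 64 the span of Gas5 98531_g_at was 3.39 and 2.76, that of Snhg6 96156_at 2.26 and 1.53, and with 64 that of Snhg11 was 1.41. Leaving out 1 array or 1 preparation gave 259 to 380 calls, and spans of 3.56 to 3.87 for Gas5 98531_g_at, 2.48 to 3.32 for Snhg6 96156_at, 1.79 to 2.47 for Snhg11, 1.84 to 2.78 for Norad 95848_at and 0.68 to 1.04 for Norad 96299_at. The gap between the strain sets, examined after the data were seen, was 1.30 to 1.86 for Gas5 and 1.03 to 2.05 for Snhg6 under the other normalizations and offsets. Of the genes in the lists, Khdrbs1 passed with arrays and title day only (adjusted p = 0.022, limma; up to 0.60 in the other settings). The 3 dim probe sets have no usable order at their signal.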
